A study of Mus musculus with 8 samples.

Results

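Mice given the dopamine neuron toxin MPTP and needled at the hips, a site chosen as a non-acupoint, were compared with saline-injected control mice. The comparison used 4 of the series' 8 arrays, the 2 hip-needled arrays and the 2 control arrays. Its members were all genes that had a probe set with a single gene symbol, with the brightest probe set taken for each gene. The rule gave 19938 genes, of which 16026 passed the filter on low signal and were tested and 3912 did not. All mice were male C57BL/6, 6 weeks old, and every group received injections once every 24 h for 4 weeks. Control mice received 100 µl of saline. The hip-needled mice received MPTP at 20 mg/kg. Needles went 3 mm into the hips on both sides and were turned 2 times a second for 15 s, in 14 sessions 48 h apart, 2 h after the toxin. The other groups of the series were MPTP without needling and MPTP with needling at acupoints. Neither the control mice nor the MPTP mice without needling were needled, so needling with its handling and MPTP cannot be told apart in hip-needled against control mice. The RNA was labelled as cervical spinal cord, and 300 ng of it went onto each Affymetrix Mouse Gene 1.0 ST array. Each array's title names a numbered mouse, such as control mouse 1, but whether an array held RNA of a single mouse or a pool could not be settled. The p-values thus measure the spread between samples, and that spread may be technical.

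MPTP is turned into its toxic form by monoamine oxidase B, an enzyme of astrocytes, and that form enters dopamine neurons through their transporter and blocks complex I of the respiratory chain. The spinal cord holds motor neurons, sensory relay neurons of the dorsal horn and many inhibitory interneurons, with astrocytes, microglia and myelinating oligodendrocytes around them. It holds few dopamine cell bodies, and the dopamine in it comes mostly from axons that descend from the brain.

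Values are log2 signals as deposited, so a difference of 1 is a factor of 2 in signal. The control arrays stood apart from the other 6 in their distribution of values. Their median over the genes tested was lower, at 7.014 and 6.997 against 7.047 to 7.115, and their median over all probe sets was higher, at 5.799 and 5.77 against 5.592 to 5.707. Probe sets without a symbol had a median of 4.746 on both control arrays and of 4.25 to 4.39 elsewhere, and the SD over all probe sets was 2.35 on both and 2.43 to 2.50 elsewhere. The narrower control distribution moves with the excess of rises given below, and its part in it was not tested. Arrays also differed in the signal of genes typical of other tissues. A list of skeletal muscle genes averaged 6.81 and 7.80 in the control samples, 5.62 and 5.86 in the hip samples, and 6.49 in acupoint replicate 1. On hip replicate 2 the fat cell genes were bright, and on hip replicate 1 the Hox genes of the posterior body were dim. Replicates differed by more than 1 in 136 genes of the control group and in 38 genes of the hip group, 34 of them brighter on hip replicate 2. The precision is limited by the number of arrays, 2 a group. An exact test on a single gene cannot give a p below 0.333, so tests come from a limma model fitted to all genes.

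Hip-needled MPTP mice differed from control mice in 3083 of 16026 genes (19.2%) at an adjusted p under 0.05. Of these, 2463 genes rose (15.4%) and 620 fell (3.87%). Rises made up 79.9% of the calls, 73.8% after another quantile normalization, which gives all arrays the same distribution, 62.6% after cyclic loess and 94.5% when each array was centred on its median. Most differences were small. The median SE of a difference was 0.126, the median difference of all genes was 0.054, and 43 genes rose (0.268%) and 74 fell (0.462%) by at least 2-fold. The 2 groups did not overlap in 6438 genes that were higher (40.2%) and 3822 that were lower (23.8%) on the hip arrays. Genes named below for large differences or small p-values were picked among called genes without overlap. In them the lack of overlap follows from the choice. The count of called genes depended on single arrays. It was 387 without hip replicate 1, 994 without control replicate 2, 1101 without hip replicate 2, 4637 without acupoint replicate 1 and 4631 without acupoint replicate 2. With the muscle mean as a covariate 4 genes were called, Meg3, Rian, Slc5a7 and Wsb1, and no list below that lacks these genes had a call. The sizes of the differences were uneven in that fit. Over 183 called genes named or listed, the median ratio of the difference in that fit to the difference without the covariate was 0.721, with a change of sign in 5, the muscle genes Acta1, Klhl41, Myh1 and Myl1 and the opioid receptor gene Oprk1. The covariate is the mean of the muscle list, so for genes on that list the loss of the difference is built into the fit. List medians went from 0.36 to 0.40 for motor neurons, from 0.46 to 0.27 for astrocytes, from 0.44 to 0.19 for microglia, from 0.33 to 0.04 for glucocorticoid targets and from -1.09 to -1.13 for nuclear RNAs. The muscle mean does not overlap between the control and hip arrays, so muscle signal and group cannot be told apart. Where a count is given below without either array of a group, each of the 2 was left out in turn and gave that count. The other comparisons against control share the control arrays with this one, and called 2696 genes (16.8%) in MPTP mice without needling and 1878 (11.7%) in acupoint-needled mice. Counts of list members below stand beside the 19.2% of all genes. The share called was near or below that for inherited parkinsonism (18.2%), ribosome (17.9%), Schwann cell (20.0%), meningeal (13.3%), endothelial (12.5%), ependymal (12.5%) and immediate early genes (11.8%). For glutamate, inflammation and interferon genes it was 22.2%, 22.2% and 21.4%.

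**Figure D1:**
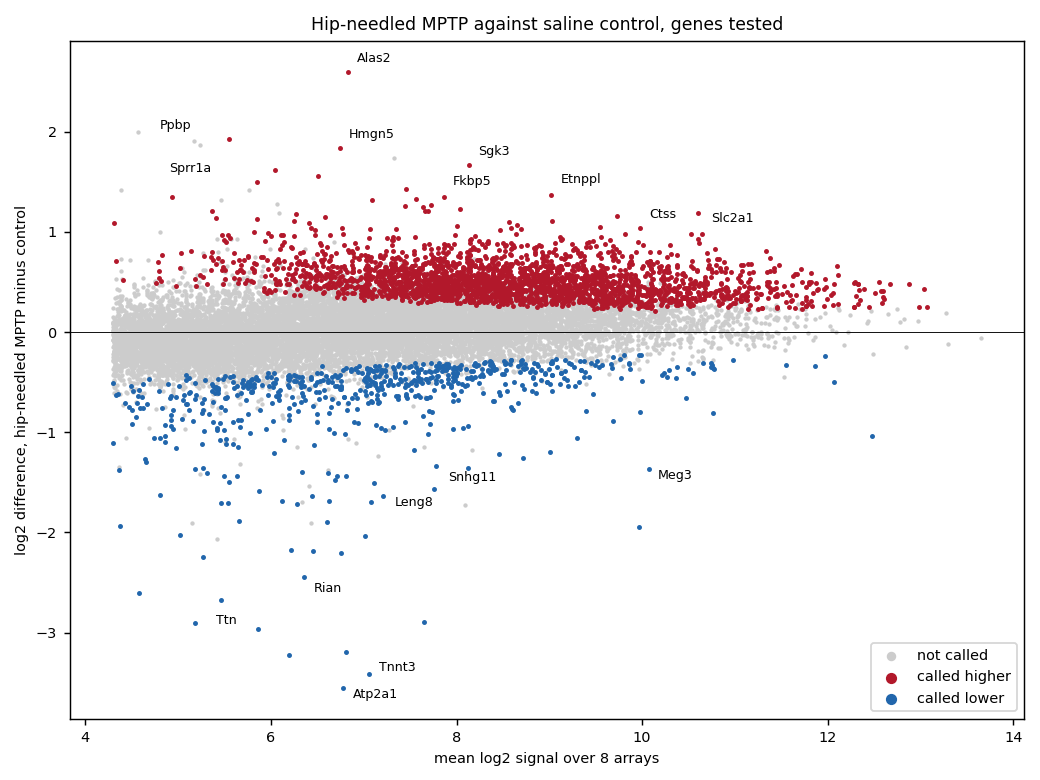
Each point is 1 of the 16026 genes tested, with its mean log2 signal over the 8 arrays on the x axis and its log2 difference, hip-needled MPTP minus control, on the y axis. The 2463 genes called higher and the 620 called lower are coloured, and the 43 and 74 genes past 2-fold lie above 1 and below -1.

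The largest decreases were in genes of skeletal muscle fibres. Of 36 tested genes on the muscle list, 26 fell and 1 rose, with a median difference of -1.52. Atp2a1, the calcium pump of fast fibres, was at 8.49 and 9.88 on the control arrays and at 5.31 and 5.96 on the hip arrays, a difference of -3.55 (SE 0.66, adjusted p = 0.00804). Tnnt3, the fast troponin T that anchors the calcium switch of the thin filament, was at 8.64 and 10.18 against 5.79 and 6.20 (-3.41, SE 0.48, adjusted p = 0.00357). Myh4, the myosin heavy chain of the fastest fibres, was at 8.29 and 8.69 against 4.77 and 5.76 (-3.22, SE 0.72, adjusted p = 0.0153). Control replicate 2 was the brighter control in each of these 3 genes, which were picked among genes without overlap between the groups. The muscle creatine kinase Ckm (-3.19), the light chain Myl1 (-2.90) and skeletal actin Acta1 (-2.89) also fell. So did Neb, the ruler of the thin filament (-2.25), and Actn3, which cross-links thin filaments in fast fibres (-2.19). The calcium-binding troponin Tnnc2 (-2.18), the glycolytic enzyme Pgam2 (-1.89) and the calcium store protein Casq1 (-1.59) fell less. The heavy chain Myh1 fell by 2.67 with an adjusted p of 0.0478, while its control replicates lay far apart at 5.77 and 8.61. Myh2, the heavy chain of intermediate fibres, was at 5.15 and 8.34 on the control arrays and 4.51 and 4.82 on the hip arrays, and did not pass (adjusted p = 0.0963). Pygm, the glycogen phosphorylase of muscle that astrocytes also make, was the member that rose, from 9.82 and 10.13 to 10.37 and 10.41. Ankrd23 and Klhl41, proteins of the sarcomere that were not on the list, fell too (-1.69 and -1.44).

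In bulk RNA, fewer cells of a type and less RNA per cell cannot be told apart. The muscle genes were also low without needling. The list mean was 5.82 and 5.79 on the MPTP arrays, and Atp2a1 was at 5.66 and 5.68 there and at 7.82 and 5.45 on the acupoint arrays. The 26 members that fell were 11 without control replicate 2, 3 without hip replicate 1 and 16 without hip replicate 2.

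The starts of Myh4 and Pgam2, muscle genes that fell, are shown for the letters that muscle regulatory factors bind. The E-box, CANNTG, reads the same on both strands, was searched in the 250 bases before each annotated start in RefSeq (GRCm38.p6), and is in capitals, all sequences running 5′ to 3′ towards the gene. Myh4 holds it at -221 and -67 (chr11:67237562-67237811, plus strand), and Pgam2 holds 5 (chr11:5803797-5804046, minus strand).
Myh4: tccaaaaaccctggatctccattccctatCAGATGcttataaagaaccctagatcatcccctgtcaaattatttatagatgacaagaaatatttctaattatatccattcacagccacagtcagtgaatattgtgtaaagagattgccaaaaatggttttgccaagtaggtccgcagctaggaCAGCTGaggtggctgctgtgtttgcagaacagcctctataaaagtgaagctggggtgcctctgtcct
Pgam2: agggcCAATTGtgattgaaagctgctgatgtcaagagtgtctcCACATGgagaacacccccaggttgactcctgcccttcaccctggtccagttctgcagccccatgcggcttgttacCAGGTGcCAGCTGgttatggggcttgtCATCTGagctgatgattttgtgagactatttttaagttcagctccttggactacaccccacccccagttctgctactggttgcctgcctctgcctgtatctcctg
Of the 26 muscle genes that fell, 17 had a window in the RefSeq table. An E-box stood in 15 of their 18 windows (83.3%), against 21753 of all 32851 windows (66.2%). The match is a description of the letters and not of a site in use.

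**Figure D2:**
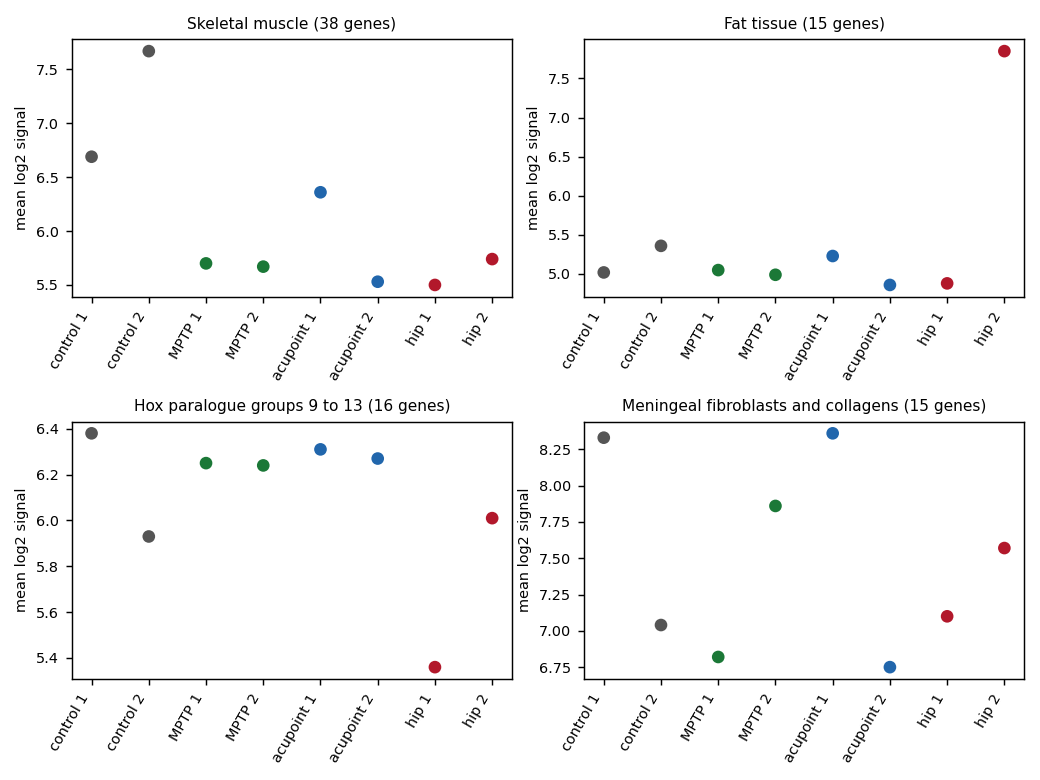
Mean log2 signal of 4 gene lists on each of the 8 arrays, 1 point per array, over all genes of the list on the array: skeletal muscle, fat tissue, Hox groups 9 to 13 and meningeal fibroblasts with collagens. Muscle is highest on the control arrays, fat stands at 7.85 on hip replicate 2 against 4.86 to 5.36 on the other arrays, and posterior Hox is lowest on hip replicate 1 at 5.36.

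Long RNAs that stay in the nucleus fell next to the muscle genes, and their replicates lay close together. Rian, an imprinted RNA of the same cluster as Meg3, was at 8.07 and 8.00 on the control arrays and at 5.69 and 5.50 on the hip arrays, a difference of -2.44 (SE 0.12, adjusted p = 5.47e-05). Meg3, the maternally expressed RNA of that cluster, was at 11.09 and 10.99 against 9.60 and 9.73 (-1.37, SE 0.08, adjusted p = 0.000135). Malat1, the abundant RNA of nuclear speckles, was at 11.51 and 11.47 against 10.59 and 10.77 (-0.81, SE 0.12, adjusted p = 0.00424). Rian and Meg3 were picked among genes without overlap between the groups, and Malat1 did not overlap either. Of 6 tested RNAs on the nuclear list 4 fell and none rose, with a median of -1.09. The remaining one of the 4, Snhg11, a host of small nucleolar RNAs, fell by 1.57. The 2 not called differed by -0.03 and 0.12. Against the same control arrays 4 of the list also fell in MPTP mice (median -1.19) and 4 in acupoint-needled mice (median -1.11). Lncpint, an RNA induced by p53, was not on that list and fell by 1.41.

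Messages known to keep introns and wait in the nucleus were the neighbouring group. Of 20 tested, 9 fell and none rose, with a median of -0.31. Among them were Wsb1, which was at 10.02 and 9.82 on the control arrays and 8.72 on both hip arrays (-1.20, SE 0.10, adjusted p = 0.000904), and Leng8, which was at 8.29 and 8.39 against 6.70 on both hip arrays (-1.64, SE 0.09, adjusted p = 0.000107). Also falling were Nktr (-0.80), Rsrp1 (-0.75), the cyclin Ccnl2 (-0.64), Pnisr (-0.59), the splicing kinase Clk4 (-0.40) and the speckle proteins Son (-0.32) and Srrm2 (-0.23). The count was 14 after cyclic loess or another quantile normalization and 14 without either acupoint array. When arrays were centred there were 5 falls and 1 rise, with a median of -0.14, and with the muscle covariate the median was -0.66. It was 5 without control replicate 1, 4 without hip replicate 1 and 5 without hip replicate 2. Outside these lists, the Integrator protein Ints6l (-1.18), the ciliary protein Cplane1 (-1.02) and the complement regulator Cd46 (-1.27) fell. The axonemal dynein Dnah7b fell by 1.63 (-0.96 when its probe sets were averaged), and Usp17ld, a ubiquitin protease, fell by 1.90. Against the same control arrays, the median of the intron-keeping list was -0.27 in MPTP mice and -0.40 in acupoint-needled mice, with 9 and 10 falls. Probe sets on this array cover whole transcripts, and intron signal was not measured apart from exon signal.

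**Figure D3:**
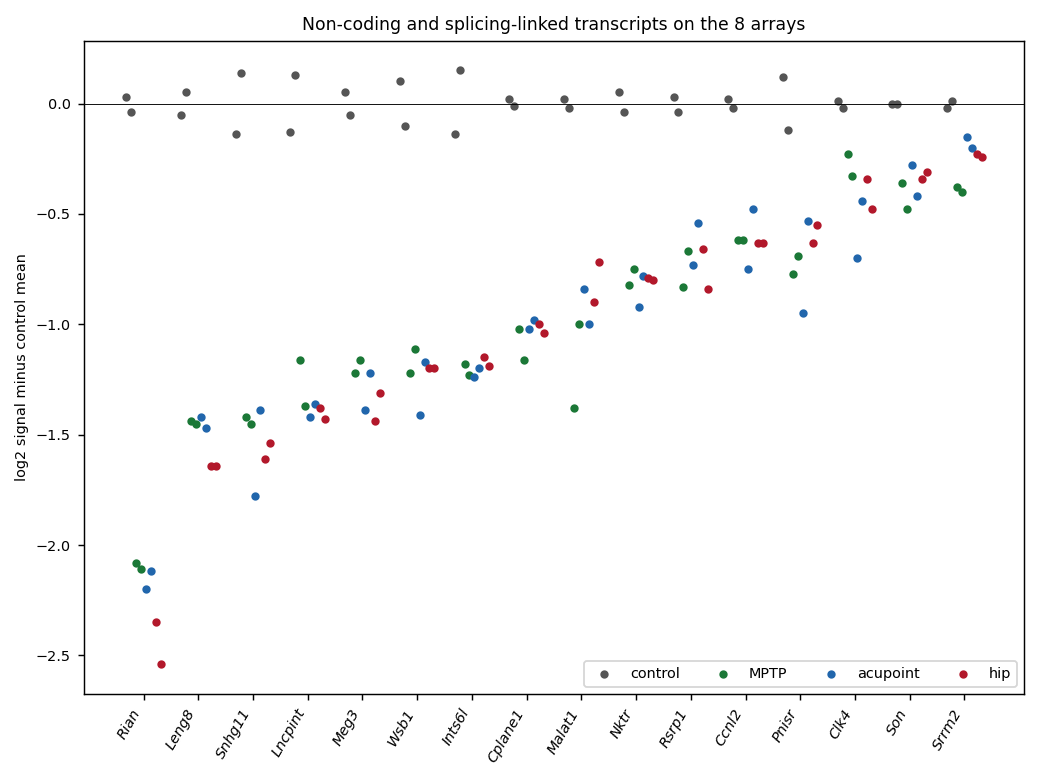
Log2 signal minus the control mean for 16 noncoding and splicing-linked transcripts, 1 point per array and transcript. The control arrays lie near 0, and Rian lies lowest, at a hip minus control difference of -2.44.

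The largest rise was in Alas2, the enzyme that starts haem synthesis in red blood cell precursors. Alas2 was at 5.24 and 5.54 on the control arrays and at 8.57 and 7.40 on the hip arrays, a 6.05-fold difference (log2 2.60, SE 0.38, adjusted p = 0.00405). Ppbp, a chemokine stored in platelets, was at 4.26 and 4.80 against 7.46 and 5.48 (1.93, SE 0.49, adjusted p = 0.0246). Both were brighter on hip replicate 1 than on hip replicate 2. Of 8 tested genes on the erythroid and platelet list these 2 rose and none fell, and no haemoglobin gene was among those with a single symbol. Fech, the last enzyme of haem synthesis, and the red cell anion exchanger Slc4a1 differed by 0.23 and 0.18 and did not pass. Alas2 was also high without needling, at 7.87 and 7.81 on the MPTP arrays, and lower on the acupoint arrays, at 5.59 and 6.64. The red blood cell list called 1 gene without control replicate 1, control replicate 2 or hip replicate 1.

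The start of Alas2 is shown because that gene rose most. The letters AGATAA, which GATA factors bind, were searched on both strands of the 250 bases before the start in RefSeq (chrX:150547167-150547416, GRCm38.p6, plus strand). They occur at -86, on the other strand, and are in capitals.
Alas2: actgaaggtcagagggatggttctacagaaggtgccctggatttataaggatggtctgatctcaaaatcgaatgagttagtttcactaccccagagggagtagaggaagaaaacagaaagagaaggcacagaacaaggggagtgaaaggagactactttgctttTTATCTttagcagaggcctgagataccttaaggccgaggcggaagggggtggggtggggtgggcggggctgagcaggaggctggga
They stood in 3281 of 32851 windows of this length (9.99%).

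Sgk3, a kinase of the serum- and glucocorticoid-regulated family, stood out among the other rises. It was at 7.54 and 7.40 on the control arrays and at 9.05 and 9.24 on the hip arrays, a 3.19-fold difference (log2 1.67, SE 0.19, adjusted p = 0.00193). It was at 8.14 and 8.21 in MPTP mice and 7.37 and 8.06 in acupoint-needled mice. Sgk3 was picked for lack of overlap with each of these groups and with control. Its relative Sgk1 was at 8.29 and 8.15 on the control arrays and 8.09 and 8.27 on the hip arrays, a difference of -0.04 (adjusted p = 0.833) that became 0.12 when arrays were centred on their medians, 0.03 without control replicate 1 and 0.05 without hip replicate 1.

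Targets of the glucocorticoid receptor, which carries the stress hormone signal to genes, rose in part. Of 17 tested, 7 rose and none fell, with a median of 0.33. Fkbp5, the chaperone that dampens the receptor, was at 7.20 and 7.10 on the control arrays and at 8.35 and 8.66 on the hip arrays, a 2.56-fold difference (log2 1.35, SE 0.15, adjusted p = 0.00201). Zbtb16, a zinc finger repressor, was at 7.43 and 7.35 against 8.27 on both hip arrays (0.88, SE 0.23, adjusted p = 0.0266). Fkbp5 was picked among genes without overlap between the groups. Zbtb16, picked for its difference from MPTP mice, did not overlap with control and stood at 7.35 and 7.32 on the MPTP arrays. Plin4, a lipid droplet protein, rose by 1.11, the metallothioneins Mt2 and Mt1 by 0.66 and 0.33, Tsc22d3, an anti-inflammatory leucine zipper protein, by 0.46 and Klf9 by 0.35. Plin4 was also the called gene among the adipocyte markers. The 7 that rose were 4 after cyclic loess, 3 without control replicate 1, 4 without control replicate 2, 3 without hip replicate 1 and 3 without hip replicate 2. Without hip replicate 2, the array with bright fat genes, the median was 0.15, and after cyclic loess it was 0.20.

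**Figure D4:**
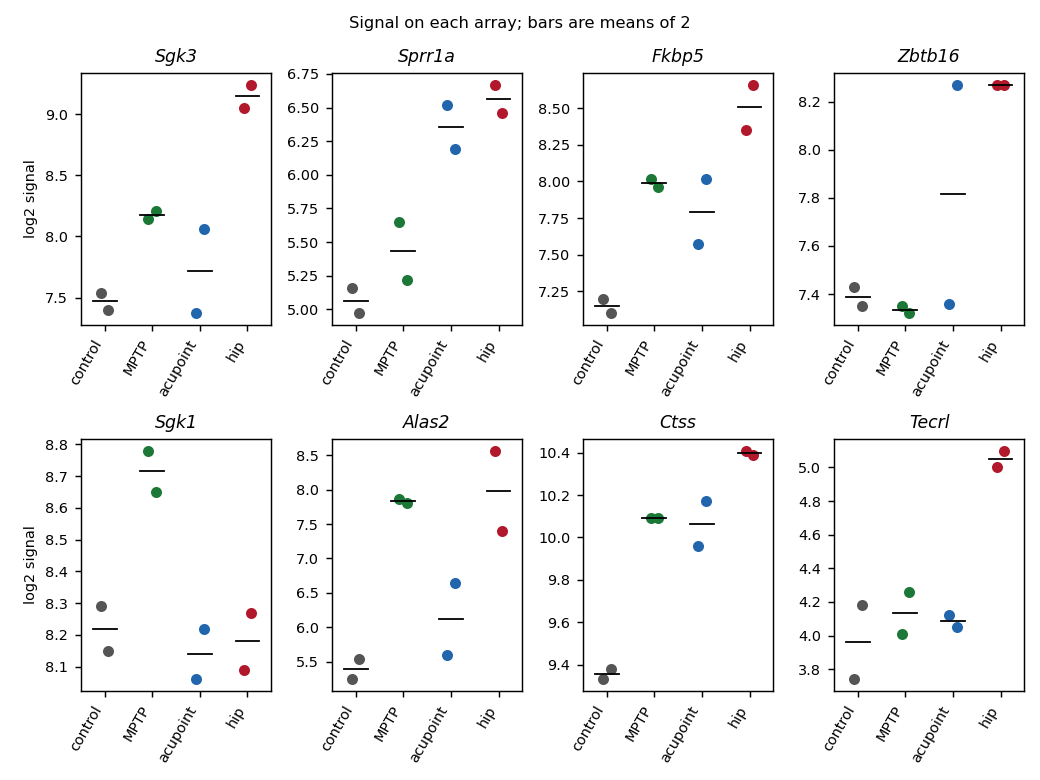
Log2 signal of 8 genes on each array, grouped by control, MPTP, acupoint-needled and hip-needled mice, 1 point per array. Sgk3 reads 9.05 and 9.24 on the hip arrays, above the 7.37 to 8.21 of the other arrays, and Zbtb16 reads 8.27 on both hip arrays, as on 1 acupoint array.

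Genes of nerve injury rose around Sprr1a, a small proline-rich protein made by injured neurons as their axons regrow. Sprr1a was at 5.16 and 4.97 on the control arrays and at 6.67 and 6.46 on the hip arrays, a 2.83-fold difference (log2 1.50, SE 0.18, adjusted p = 0.00233). Atf3, the transcription factor switched on in injured neurons, was at 5.28 and 5.67 against 6.03 and 6.11 (0.60, adjusted p = 0.0365). Sprr1a was picked among genes without overlap between the groups, and Atf3 did not overlap either. Of 14 tested genes on the list 5 rose and none fell, and the others were the small heat shock protein Hspb1 (0.89), the secreted neuropeptide precursor Vgf (0.48) and the growth arrest gene Gadd45a (0.43). The count was 3 without control replicate 1 and 3 without control replicate 2, 2 without hip replicate 1 and 2 without hip replicate 2, and 8 when arrays were centred. Of 17 immediate early genes, which neurons switch on with activity, Atf3 rose and Jund fell by 0.29, with a median of -0.24. Without either acupoint array 1 rose and 4 fell, without control replicate 2 there was 1 rise and no fall, and none was called without control replicate 1, either MPTP array or either hip array.

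The start of Sprr1a is shown for the letters TGANTCA, which AP-1 factors bind. They read the same on both strands, and the 250 bases before the start in RefSeq (chr3:92485882-92486131, GRCm38.p6, minus strand) hold them at -146 and -116, in capitals.
Sprr1a: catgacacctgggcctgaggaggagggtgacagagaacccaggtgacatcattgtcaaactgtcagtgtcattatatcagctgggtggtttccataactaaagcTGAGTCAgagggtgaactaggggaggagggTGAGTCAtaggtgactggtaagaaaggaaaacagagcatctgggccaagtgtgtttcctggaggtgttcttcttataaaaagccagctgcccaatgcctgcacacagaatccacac
They stood in 2217 of 32851 windows (6.75%).

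Other large rises were in enzymes and nuclear proteins. Hmgn5, a nucleosome-binding protein, rose by 1.84 (SE 0.33), from 5.93 and 5.14 to 7.44 and 7.31. Fmo2, a flavin monooxygenase, rose by 1.62, from 5.82 and 4.76 to 6.52 and 7.30. Car5b, a carbonic anhydrase of mitochondria, rose by 1.43 (SE 0.17), Sp140, a nuclear body protein of white blood cells, by 1.35, and the fatty acid desaturase gene Fads2b by 1.33. Cidea, a lipid droplet protein of brown fat, rose by 1.56 (SE 0.35, adjusted p = 0.0163), with hip values of 6.78 and 8.18 against 5.91 and 5.93. The smallest p-values among rising genes were those of smaller but tighter differences. Slc2a1, the glucose transporter of the blood-brain barrier, was at 10.05 and 9.86 on the control arrays and 10.95 and 10.92 on the hip arrays (0.98, SE 0.08, adjusted p = 0.000548). Gpd1, which links glycolysis to lipid synthesis, rose by 1.16, Aldh6a1, an enzyme of valine breakdown, by 0.90, the adhesion molecule Ncam1 by 0.71 and the endoplasmic reticulum protein Bcap31 by 0.83. These 5 genes were picked among called genes without overlap between the groups.

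Astrocyte genes rose widely. Of 16 tested, 13 rose and none fell, and the list's median was 0.46 against 0.054 for all genes. Etnppl, a phospholipid enzyme of astrocytes, was at 8.05 and 8.22 on the control arrays and 9.49 and 9.52 on the hip arrays (1.37, SE 0.16, adjusted p = 0.00233). Gfap, the intermediate filament of astrocytes, was at 10.72 and 10.66 against 11.45 and 11.06 (0.57, SE 0.11, adjusted p = 0.0102). Etnppl was picked among genes without overlap between the groups, and Gfap was also higher on each hip array than on either control array. Aldh1l1, the folate enzyme used as a pan-astrocyte marker, rose by 0.85, angiotensinogen (Agt) by 0.83, the glutamate transporters Slc1a3 and Slc1a2 by 0.74 and 0.56, the gap junction proteins Gjb6 and Gja1 by 0.53 and 0.37, and the water channel Aqp4 by 0.50. Aldoc and Glul, enzymes of glycolysis and of glutamine synthesis, rose by 0.43 each. The 13 were 7 without control replicate 2 and 5 without hip replicate 1. The median was 0.29 after cyclic loess and 0.63 when arrays were centred, a setting that moved the median of all genes to 0.217. Cyclic loess lowered the medians of other lists that rose too, to 0.20 for motor neurons, 0.07 for general neuronal genes, 0.14 for heat shock genes, 0.16 for antioxidant genes and 0.08 for axonal transport. The list mean was 10.59 and 10.55 on the MPTP arrays against 10.64 and 10.57 on the hip arrays.

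Microglial genes rose in the same comparison. Of 22 tested, 10 rose and none fell, with a median of 0.44. Ctss, a lysosomal protease of microglia, was at 9.33 and 9.38 on the control arrays and 10.41 and 10.39 on the hip arrays (1.04, SE 0.08, adjusted p = 0.000548). C1qa, which starts the classical complement cascade with C1qb and C1qc, was at 7.82 and 7.91 against 8.76 and 8.66 (0.85, adjusted p = 0.00218). For both genes the hip arrays were also above all MPTP and acupoint arrays, which ranged from 9.96 to 10.17 for Ctss and from 8.22 to 8.44 for C1qa. C1qb rose by 0.69, C1qc by 0.46, the integrin Itgam by 0.80, the actin-bundling protein Aif1 by 0.72, the orphan receptor Gpr34 by 0.54, the lectin Siglech by 0.53, and the fractalkine receptor Cx3cr1 by 0.45. Fcrls, a receptor-like marker of microglia, rose by 0.56. The 10 that rose were 4 without control replicate 2, 4 without hip replicate 1 and 4 without hip replicate 2. Among 18 inflammation genes 4 rose and none fell. They were Serpina3n, a protease inhibitor of reactive astrocytes that went from 8.95 and 8.92 to 9.80 on both hip arrays (0.86, SE 0.07, adjusted p = 0.000557), the adhesion molecule Vcam1 (0.73), complement C4b (0.55) and the chemokine Ccl3 (0.90). Without control replicate 1 the inflammation list called 2. Of 14 interferon-induced genes, Ifit2 (0.67), Usp18 (0.53) and Ifi27 (0.52) rose, but 1 was called without control replicate 2, 1 without hip replicate 1 and none without hip replicate 2. Of 7 white blood cell genes 1 was called, the T cell receptor chain Cd3e, which fell by 0.78. It was not called without control replicate 2, and without hip replicate 1 a gene of that list was called higher in its place.

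Genes of central myelin also rose. Of 16 oligodendrocyte genes 8 rose and none fell, with a median of 0.27, among them the myelin adhesion protein Mag, from 10.64 and 10.65 to 11.39 and 11.23 (0.67, adjusted p = 0.00233). Transferrin (Trf) rose by 0.50, Ermn by 0.53, Cnp by 0.43, Mobp by 0.41, Ugt8a by 0.38 and the lineage factor Olig1 by 0.31. Of 8 precursor genes Lhfpl3 (0.67), the growth factor receptor Pdgfra (0.57) and Neu4 (0.48) rose. After cyclic loess 5 oligodendrocyte genes rose and 1 fell, with a median of 0.10, and after another quantile normalization the median was 0.18. The oligodendrocyte count was 5 without either MPTP array, 4 without control replicate 2, 2 without hip replicate 1 and 5 without hip replicate 2, and the precursor count was 1 without control replicate 2 and 1 without hip replicate 1. Of 16 endothelial and mural genes Slc2a1 and the efflux pump Abcb1a (0.63) rose and none fell, 4 without either acupoint array and 1 without hip replicate 1.

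**Figure D5:**
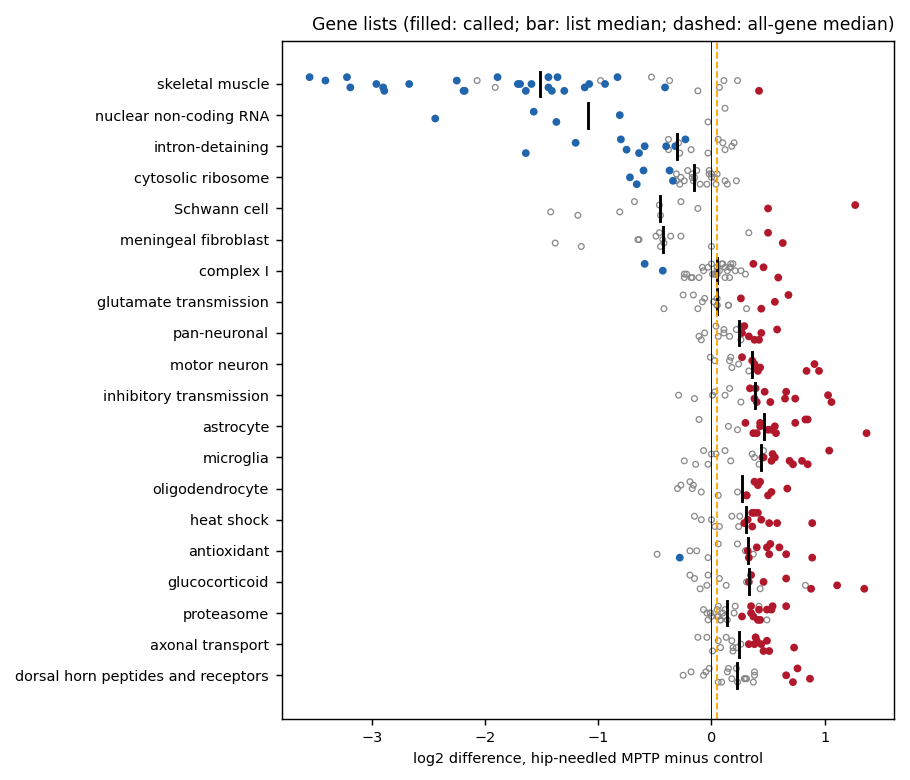
Log2 difference, hip-needled MPTP minus control, of each tested member of 20 gene lists, 1 point per gene, filled where the adjusted p was under 0.05, with a bar at each list's median and a dashed line at the median of all genes, 0.054. Muscle has the lowest median, -1.52, and astrocyte genes, with a median of 0.46, have 13 of 16 members filled.

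Genes of neurons rose as well, among them those of cholinergic motor neurons, the cells that drive muscle. Of 17 tested on the motor neuron list 9 rose and none fell, with a median of 0.36. Against the same control arrays 10 rose in MPTP mice and 6 in acupoint-needled mice. Slc5a7, which takes up choline for acetylcholine synthesis, was at 8.70 and 9.03 on the control arrays and 9.74 and 9.80 on the hip arrays (0.91, adjusted p = 0.00284). Chat, the enzyme that makes acetylcholine, was at 6.51 and 6.88 against 7.62 and 7.67 (0.95, adjusted p = 0.00584). Both kept the groups apart, while the vesicular transporter Slc18a3, at 8.99 and 9.39 against 9.58 and 9.64, did not pass (0.42, adjusted p = 0.0875). Chodl, a marker of fast motor neurons, rose by 0.84, the peripheral filament Prph by 0.43, Mmp9 by 0.39, and the neurofilaments Nefh, Nefl and Nefm by 0.38, 0.36 and 0.27. Prune2 rose by 0.41, or by 0.19 when its probe sets were averaged. The 9 that rose were 4 after cyclic loess, 5 after another quantile normalization, 4 without control replicate 1, 5 without control replicate 2, 1 without hip replicate 1 and 2 without hip replicate 2. Of 18 general neuronal genes 7 rose and none fell, among them the neuronal enolase Eno2 (0.58), Celf4 (0.44), Snap25 of the synaptic fusion machinery (0.42) and the vesicle proteins Syt1 (0.33) and Syp (0.27). Stmn2 rose by 0.29, and Stmn3 by 0.38, which became 0.00 when its probe sets were averaged. That count was 2 after cyclic loess, 4 without either MPTP array and 1 without control replicate 2, hip replicate 1 or hip replicate 2.

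Genes of inhibitory transmission, by which GABA and glycine quiet spinal circuits, rose in 11 of 18 tested and fell in none, with a median of 0.39. Against the same control arrays 12 rose in MPTP mice and 11 in acupoint-needled mice, each with a median of 0.42. For the general neuronal genes those counts were 9 and 6. Glra3, a glycine receptor subunit of the dorsal horn, was at 6.60 and 6.43 on the control arrays and 7.62 and 7.47 on the hip arrays (1.03, SE 0.11, adjusted p = 0.00152). Gabrg1, a GABA receptor subunit, was at 7.27 and 7.33 against 8.40 and 8.31 (1.06, SE 0.13, adjusted p = 0.00249). These were the largest rises of the list, and the groups did not overlap in either. The GABA-making enzymes Gad1 and Gad2 rose by 0.40 and 0.38, the glycine transporter Slc6a9 by 0.34, and the receptor subunits Glra2 by 0.74, Gabrb1 by 0.66, Gabra3 by 0.65, Gabra2 by 0.52, Glrb by 0.47 and Gabrb2 by 0.39. After cyclic loess 7 rose and 2 fell, with a median of 0.23. The 11 that rose were 7 without control replicate 2, 3 without hip replicate 1 and 6 without hip replicate 2. Of 18 glutamate genes 4 rose and none fell, with a median of 0.05 that was -0.03 after cyclic loess. They were the vesicular transporter Slc17a6 (0.68) and the AMPA receptor subunits Gria3 (0.56), Gria1 (0.44) and Gria4 (0.26). The glutamate count was 2 without control replicate 2 and 1 without hip replicate 1.

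Peptides and receptors of the dorsal horn, which relays pain and touch, gave 4 rises among 22 tested (18.2%, against 19.2% of all genes) and no fall. Against the same control arrays 8 rose in MPTP mice and 8 in acupoint-needled mice. In hip-needled mice the 4 were as follows. Neurotensin (Nts) rose by 0.87, the opioid peptide precursor Pdyn by 0.76, the neuropeptide Y receptor Npy1r by 0.72 and the calcitonin gene-related peptide gene Calcb by 0.66. Of 8 opioid genes Pdyn, the kappa receptor Oprk1 (0.62, adjusted p = 0.044) and the nociceptin receptor Oprl1 (0.35) rose. The dorsal horn count was 1 without control replicate 2, none without hip replicate 1, 2 without hip replicate 2 and 8 when arrays were centred, and the opioid count was none without hip replicate 1 and 1 without control replicate 2, hip replicate 2 or either MPTP array. Of 12 serotonin receptors Htr3a (0.48) and Htr1a (0.39) rose, but 1 was called without control replicate 1 or control replicate 2 and none without either hip array or either MPTP array. Of 25 voltage-gated channels Scn4b (0.51), Scn1a (0.29) and Kcnd2 (0.29) rose, 1 without control replicate 1 and none without either hip array. After cyclic loess 1 channel rose and 2 fell. Without control replicate 2 a channel gene fell instead and none rose, and without either acupoint array 4 rose and 2 fell.

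Among 13 tested genes of dopamine and noradrenaline, 3 rose and 1 fell. Maob, the monoamine oxidase that turns MPTP into its toxic form, was at 8.22 and 7.87 on the control arrays and 8.82 and 8.81 on the hip arrays (0.77, SE 0.11, adjusted p = 0.00374). Ddc, the decarboxylase that makes dopamine and serotonin, was at 6.99 and 6.90 against 7.77 and 7.35 (0.62, adjusted p = 0.0156). The D2 dopamine receptor Drd2 was at 7.67 and 7.64 against 7.26 and 7.34, a fall of 0.35 (SE 0.09, adjusted p = 0.0258). None of these 3 overlapped between the groups, and Maoa, the other monoamine oxidase, rose by 0.56. Th, the enzyme that defines dopamine and noradrenaline cells, was at 6.41 and 5.58 on the control arrays and 6.07 and 6.19 on the hip arrays, a difference of 0.13 that did not pass (adjusted p = 0.721) and was -0.28 without control replicate 2. The fall of Drd2 was not called without any single control, MPTP or hip array, where it ranged from -0.31 to -0.39, or when arrays were centred (-0.19). Rises on the list numbered 2 without control replicate 2, 4 with that array kept and control replicate 1 left out, and 1 without hip replicate 1. Of 11 genes mutated in inherited parkinsonism, the retromer subunit Vps35 rose by 0.36 and the lipid transfer protein Vps13c fell by 0.33. Neither was called without control replicate 2, either hip array or either MPTP array, and without control replicate 1 only 1 of the list was.

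Chaperones and antioxidant enzymes were the stress genes that rose. Against the same control arrays, 10 heat shock and 7 antioxidant genes also rose in MPTP mice, and 7 and 2 in acupoint-needled mice. Of 18 heat shock and folding genes 10 rose and none fell, with a median of 0.30, led by Hspb1, at 7.66 and 7.82 on the control arrays and 8.46 and 8.81 on the hip arrays. Hyou1, Hspa5, Pdia6 and Hsp90b1, all of the endoplasmic reticulum, rose by 0.58, 0.44, 0.38 and 0.36, and the cytosolic Hsp90aa1 by 0.41. Dnaja1 rose by 0.36, or by 0.11 when its probe sets were averaged. The heat shock count was 4 after cyclic loess, 3 without control replicate 2, 2 without hip replicate 1 and 6 without hip replicate 2. Of 18 antioxidant genes 9 rose and 1 fell, with a median of 0.32. Nqo1, the quinone reductase under the NRF2 factor, was at 5.97 and 6.00 against 6.86 and 6.88 (0.89, adjusted p = 0.009). The hip arrays lay above the controls by more than the replicates differed. Gstm1 rose by 0.60, the peroxidase Gpx1 by 0.52, the glutathione synthesis subunit Gclm by 0.49 and the mitochondrial superoxide dismutase Sod2 by 0.40, and the lipid peroxidase Gpx4 fell by 0.28. The antioxidant list called 6 without control replicate 2, 2 without hip replicate 1 and 4 without hip replicate 2, all of them higher, and after cyclic loess 7 rose and 3 fell.

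Complex I is the part of the respiratory chain that MPTP's toxic form blocks, and 5 of its 35 tested subunits were called (14.3%), near the 19.2% of all genes. Ndufs1 (0.59), Ndufa9 (0.46) and Ndufa10 (0.37) rose, Ndufs6 (-0.59) and Ndufa3 (-0.43) fell, and the list's median of 0.05 was -0.09 after cyclic loess and 0.21 when arrays were centred. The balance turned with the setting, to 2 rises and 5 falls after cyclic loess, 3 and 4 after another quantile normalization, 2 and 4 without control replicate 1, and 6 rises and no fall when centred. Without either acupoint array 7 rose and 2 fell, 2 rose and none fell when control replicate 2 or hip replicate 2 was left out, and without hip replicate 1 there was 1 rise. Of 28 cytosolic ribosome genes none rose and 5 fell, Rpl12 (-0.72), Rps14 (-0.66), Rps28 (-0.60), Rps12 (-0.37) and Rplp1 (-0.34). This direction turned with the scaling, since the median was -0.15 as deposited, -0.29 after cyclic loess and 0.01 when arrays were centred, with 15 falls after cyclic loess and 2 rises and 3 falls when centred. The ribosome count was 8 without either acupoint array, 1 without control replicate 2, 1 without hip replicate 1 and 2 without hip replicate 2. Of 31 proteasome subunits, which break down tagged proteins, 11 rose and none fell, among them Psmd6 (0.66), Psmb2 (0.53) and Psmd4 (0.49), with a median of 0.14 that was -0.02 after cyclic loess. The proteasome list called 4 without either MPTP array, 1 without control replicate 2 and none without control replicate 1 or either hip array. Of 20 motors of axonal transport 9 rose and none fell, led by the kinesin Kif5b, from 10.42 and 10.28 to 11.05 and 11.11 (0.73, adjusted p = 0.00178). Kif5a rose by 0.51, Kif3a by 0.44, Kif5c by 0.33, and the dynein and dynactin genes Dync1li2, Dync1i1 and Dctn4 by 0.49, 0.46 and 0.39, and the list called 2 without hip replicate 1.

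Of 18 clock genes 5 rose and 2 fell. The nuclear receptors Rorb and Rora rose by 0.68 and 0.46, Bhlhe41 by 0.57 and the repressors Cry1 and Cry2 by 0.51 and 0.34, and Per3 and Nr1d1 fell by 0.57 and 0.50. The sources used here do not state the hour at which tissue was taken. Without hip replicate 1 this list had 1 rise and 1 fall, and without hip replicate 2 there were 3 rises and 1 fall. Of 15 cholesterol genes Cyp51 (0.65), Hmgcs1 (0.60), Lss (0.34) and Msmo1 (0.31) rose, 2 without either MPTP array or without hip replicate 2, 2 with 1 fall after cyclic loess, and none without control replicate 2 or hip replicate 1. Of 16 neurotrophic genes the factor Fgf1 and the receptor Ntrk2 rose by 0.45 each, and the receptor Ntrk3 and the factor Vegfa fell by 0.50 and 0.31. There were 2 rises and no fall without control replicate 2 or either MPTP array and 1 rise without either hip array.

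The labelled tissue was checked against its position genes. Hox genes keep a code of position along the body, with higher numbered groups expressed further towards the tail. Hoxc8, a gene of the brachial and thoracic level, rose from 8.51 and 9.57 to 10.19 and 9.97 (1.05, adjusted p = 0.0238), and Hoxd4 and Hoxd3, of the upper cord and hindbrain, fell by 0.88 and 0.44. Of 20 tested genes on the Hox list these 3 were called. Without hip replicate 1 none was, without hip replicate 2 none rose and 3 fell, and without either control or MPTP array there was 1 rise and 1 fall. After cyclic loess 1 fell and none rose, and centring moved the list's median from -0.12 to 0.04. Groups 9 to 13, a list made after the values were seen and given no test, were not at the floor in cord labelled cervical. Hoxd10, a gene of the lumbar cord, was at 8.77 and 7.64 on the control arrays, 8.35 on hip replicate 2 and 4.58 on hip replicate 1, and the other arrays spanned 7.64 to 9.07. Hoxc10 was at 7.49 and 7.24 on the control arrays, 5.18 on hip replicate 1 and 7.06 on hip replicate 2, and Hoxa10 at 6.91 and 6.68 against 5.66 and 6.61. Hip replicate 1 was the lowest array in all 3. Neither Hoxd10 (-1.73, adjusted p = 0.221) nor Hoxc10 (-1.24, adjusted p = 0.0844) passed in hip-needled against control mice. Without hip replicate 1 the Hoxd10 difference was 0.15. The part of the cord's level in the other results was not tested.

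Fat cell genes, a list also made after the values were seen, were bright on hip replicate 2 and not on hip replicate 1. Fabp4, a fatty acid carrier of fat cells, was at 4.54 and 4.98 on the control arrays, 4.30 on hip replicate 1 and 9.05 on hip replicate 2. Ucp1, the uncoupling protein of brown fat, was at 3.77 and 4.23 against 4.12 and 7.88, and the carbonic anhydrase Car3 at 6.66 and 7.14 against 6.57 and 10.70. Fabp4 and Car3 did not pass (adjusted p = 0.272 and 0.263), and differed by -0.46 and -0.33 without hip replicate 2. Ucp1 did not pass either (adjusted p = 0.151). It lay under the filter of 4.30 on both control arrays and on hip replicate 1, so its values are a description and not a test. Of 9 adipocyte genes fixed as markers Plin4 rose. The median of these markers was 1.19, and it was 2.3 without hip replicate 1 and -0.31 without hip replicate 2. Cidea and Fmo2, given above among the rises, were brighter on hip replicate 2 than on hip replicate 1. The part of fat RNA in their differences was not tested.

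Genes of nerve sheath and meninges varied between the replicates of a group. Ogn, a matrix protein of meningeal fibroblasts, was at 9.19 and 5.48 on the control arrays and 5.19 and 6.71 on the hip arrays, and Dcn, another, at 10.37 and 7.84 against 8.21 and 9.01. Pmp2, a myelin protein of Schwann cells, was at 8.06 and 3.73 against 4.00 and 4.94. Control replicate 1 was the brightest of the 4 arrays in all 3 genes, and none passed, with adjusted p-values of 0.574, 0.772 and 0.514. Of 10 Schwann cell genes Cdh19 (1.27) and Mal (0.50), which oligodendrocytes also make, rose, and of 15 meningeal genes Ptgds (0.63) and Apod (0.50) did. The medians of the lists, -0.45 and -0.43, became 0.39 and 0.36 without control replicate 1. Each list called 1 gene without control replicate 2 and 1 without hip replicate 1, and the meningeal list 1 without hip replicate 2. Of 8 ependymal genes the dynein Dnah9 fell by 0.44 and was not called without any single control, MPTP or hip array. No gene of 6 for sensory ganglia was called, and Scn10a, the sodium channel of pain-sensing neurons, was at 5.96 and 4.78 on the control arrays and 4.19 and 4.62 on the hip arrays (-0.96, adjusted p = 0.0749). Without control replicate 2 the ganglion list had 2 falls, and without either acupoint array 1.

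Whether hip-needled mice differed from MPTP mice without needling was tested as the difference between those groups. No gene was called (0.0% of 16026), the smallest adjusted p being 1.0, and 273 genes (1.7%) had an unadjusted p under 0.05 in limma. Fitted on the 2 groups alone, Sgk3 and Zbtb16 were called. They were also called without acupoint replicate 1 or acupoint replicate 2, while 13 genes were called without hip replicate 1 and 2, Hoxc10 and Hoxd10, without hip replicate 2. The following genes had the largest differences without overlap at an unadjusted p under 0.01, and none passed after adjustment. Sgk3 was 0.97 higher in hip-needled than in MPTP mice (SE 0.19, unadjusted p = 0.000524), Sprr1a 1.13 higher (unadjusted p = 0.000125) and Zbtb16 0.94 higher (unadjusted p = 0.0024). Tecrl, an endoplasmic reticulum enzyme of heart muscle, was at 4.01 and 4.26 on the MPTP arrays and at a mean of 5.05 ± 0.07 (SD, n = 2) on the hip arrays, 0.91 higher (unadjusted p = 0.000592), and rose by 1.09 against control. Its mean in every other group was under the filter of 4.30. Tecrl was thus tested only because the hip arrays were high, and its differences are a description and not a test. Xdh, the xanthine dehydrogenase that makes uric acid, was 0.72 higher (unadjusted p = 0.00188). Cidea was 1.16 higher (unadjusted p = 0.00925), with hip values of 6.78 and 8.18. Sgk1 differed by -0.54 (unadjusted p = 0.000525), with MPTP values of 8.78 and 8.65. Banp, a nuclear matrix protein, differed by -0.48 (unadjusted p = 0.00449), Dnah7b by -0.61 (unadjusted p = 0.00938), the membrane protease Mmp14 by -0.49 (unadjusted p = 0.00917), Hoxd9 by -0.57 (unadjusted p = 0.00358) and Hoxd11 by -1.30 (unadjusted p = 0.00932). Ctss and C1qa differed by 0.31 and 0.39 (unadjusted p = 0.00418 and 0.00306). Against control the MPTP mice differed by 0.71 in Sgk3 and by 0.37 in Sprr1a, beside 1.67 and 1.50 in hip-needled mice, and these values share the control arrays.

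Hip-needled mice were set against acupoint-needled mice in the same way. No gene was called (0.0% of 16026), and 604 genes (3.77%) had an unadjusted p under 0.05 in limma. Without acupoint replicate 2 there were 622 calls, 12 without hip replicate 1 and 3, Hoxc10, Hoxd10 and Ppbp, without hip replicate 2. Sgk3 had the smallest adjusted p, 0.411, with a difference of 1.43 (unadjusted p = 2.57e-05). Alas2 was 1.87 higher on the hip arrays (unadjusted p = 0.000773), Cidea 1.16 higher (unadjusted p = 0.00894), Tecrl 0.97 higher (unadjusted p = 0.000393), Ccl3 0.94 higher (unadjusted p = 0.0028) and Hoxc5 0.75 higher (unadjusted p = 0.00243). Tecrl, as said above, passed the filter on low signal only through its hip values. Lower values were those of Hoxc10 (-1.60, unadjusted p = 0.00592), Usp17ld (-1.18, unadjusted p = 0.00184), Hoxd9 (-0.68, unadjusted p = 0.00126), the histone chaperone Set (-0.59, unadjusted p = 0.00387), the Integrator subunit Ints2 (-0.57, unadjusted p = 0.000465) and Fam216b (-0.57, unadjusted p = 0.00246). Sprr1a did not separate the 2 needled groups. Its acupoint values were 6.52 and 6.19 beside hip values of 6.67 and 6.46, a difference of 0.21 (unadjusted p = 0.275), and both needled groups were called higher than control, by 1.29 and 1.50. Ints2 fell by 0.60 against control. The muscle list mean of 6.49 on acupoint replicate 1 stood beside 5.66 on acupoint replicate 2, and its part in these differences was not tested.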

How the data were processed

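Per the submitters' processing notes, the arrays were processed by RMA in Affymetrix Expression Console. The deposited table holds log2 signals of 35557 probe sets on 8 arrays in 4 groups of 2, where base 2 was inferred from how high the values reach. RMA is meant to equalise signal distributions between arrays, and it compresses the fold changes of dim probe sets. The deposited distributions still differed between arrays, with medians over all probe sets of 5.592 to 5.799. Groups came from the labels. In the platform annotation 21789 probe sets had 1 symbol, 1621 had several and 12147 had none, and Entrez identifiers of 21698 matched RefSeq (GRCm38.p6). The brightest probe set stood for each of 999 genes with several, and a gene was tested if its mean over the 8 arrays passed the 30th percentile, 4.30.

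Group means of all 8 arrays were modelled in R 4.3.3 using limma 3.58.1 (lmFit, eBayes with an intensity trend, two-sided, Benjamini-Hochberg), with 4 residual and 5.34 prior degrees of freedom. The code was tested on simulated data. Genes were called at an adjusted p under 0.05. Members and lists were chosen with earlier results of these data known. Named genes were those called without overlap that had the 12 largest differences in each direction, the 12 largest falls off the muscle list or the 8 smallest p in each direction, the 6 largest in each direction against the other MPTP groups, and the leading, defining or unequal members of lists. Of the called genes without overlap, 153 predicted or small RNA genes are not named. Alternatives changed the normalization, filter, moderation, arrays fitted, probe set rule, array weights, replicate block and a muscle covariate, and left out each array. Batches could not be tested, as no scan dates were used. Python 3.11.15 with matplotlib 3.10.9 drew the figures.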

Additional observations from a re-analysis of the deposited data

Results flagged for a closer look

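In 5 of the genes named or listed here, both hip arrays lay on one side of both control arrays while both arrays of another MPTP group lay on the other side. Only those genes were searched, and the count over all 16026 genes tested was not taken. All 5 had been named for a large difference without overlap between hip-needled mice and another MPTP group. That choice favours opposite sides of control. Of all genes tested, 40.2% were higher and 23.8% lower on the hip arrays without overlap with control. Whether the 2 directions differ was not tested as such, and the hip values against the other group, from limma, are given with each gene. Zbtb16 differed from control by 0.88 in hip-needled mice and by -0.06 in MPTP mice without needling, and hip minus MPTP was 0.94 (adjusted p = 1.0). Hoxd9 differed from control by -0.34 in hip-needled mice, by 0.23 in MPTP mice and by 0.33 in acupoint-needled mice, with hip minus MPTP at -0.57 and hip minus acupoint at -0.68. Hoxc10 differed from control by -1.24 in hip-needled and by 0.35 in acupoint-needled mice, and its hip replicates lay at 5.18 and 7.06. Set differed by -0.19 and 0.40 in the same groups, and Fam216b by -0.27 and 0.30. No group had 4 or more arrays, so no array was tested as an outlier within its group.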

How the results depend on the processing

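The 3083 genes called against control became 4 with the muscle covariate and 4641 without both acupoint arrays, a setting chosen after seeing the data, and ranged from 387 to 4637 over the fits without 1 array. Hip minus MPTP, with 0 calls, gave 2 without both acupoint arrays, 2 with only the groups compared, 1 with array weights and 0 to 13 over the fits without 1 array. Hip minus acupoint gave 0 to 622 over those fits. Replicate differences of the hip group correlated with those of the control, MPTP and acupoint groups at -0.02, 0.158 and -0.328 across genes. Each group gives a single replicate difference, so these values cannot tell whether replicate numbers pair the arrays. A replicate block gave 2511 calls against control and 0 against the acupoint group, and exchanging the acupoint numbers, a setting chosen after seeing the data, gave 0. Of 183 named or listed genes called against control, 149 kept direction and call after cyclic loess, 171 when arrays were centred, 144 without control replicate 1, 102 without control replicate 2, 65 without hip replicate 1 and 110 without hip replicate 2. With the muscle covariate 4 kept the call, 174 lost it and 5 changed sign.

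Signs turned with the muscle covariate in Acta1 (0.16), Klhl41 (0.58), Myh1 (1.45), Myh2 (1.59), Myl1 (0.09), Oprk1 (-0.15), Banp (-0.10) and Th (-0.59). Acta1, Myh1, Myh2 and Myl1 are part of the mean used as covariate, so the loss of their falls is built into that fit. Banp was also at -0.01 after cyclic loess, Set at 0.09 after another quantile normalization and Sgk1 at 0.12 when centred. Over the fits without 1 array the differences from control changed sign in Banp (-0.04 to 0.13), Car3 (-0.33 to 3.80), Dcn (-1.76 to 0.78), Fabp4 (-0.46 to 4.28), Hoxd10 (-3.62 to 0.15), Mmp14 (-0.40 to 0.01), Ogn (-3.24 to 0.47), Pmp2 (-3.59 to 0.74), Sgk1 (-0.13 to 0.05) and Th (-0.28 to 0.55). The cause was not tested.

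When arrays were centred, 11 general neuronal, 9 clock, 7 cholesterol, 6 channel, 5 interferon and 5 endothelial genes rose. Without an intensity trend, 3 general neuronal, 5 oligodendrocyte, 6 heat shock, 4 glucocorticoid and 3 proteasome genes rose. With 2 arrays a group and no measure of background in the deposited values, differences of dim genes are the least certain.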
